A study of Mus musculus with 7 samples.

Results

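The heat shock chaperone genes described here are Hspa1a, Hspa1b, Hspa8, Hsph1, Dnajb1, Hsp90aa1, Hspe1, Hspb8, Cryab and Bag3, 10 genes taken by name from the annotation carried by the array files. The files named 16 probes for 9 of the 10 genes, out of 39401 probes kept after outlier flags, and all 9 were among the 23323 genes and other named features that were tested. Each gene was represented by its brightest probe, and each of these 9 probes was well above background on all 7 arrays. Hspa1b had no probe under its own name. Values are log2 processed signal minus the 75th percentile of the same array, so that 0 marks that percentile and 1 unit is a change of 2-fold.

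The RNA came from brains of male mice of the C57BL/6N background, hybridised in 1 colour, with 1 sample per array. Knockout (KO) mice lacked Pla2g2e, a gene for a secreted phospholipase A2, and their 3 arrays were labelled day 3 after occlusion of the middle cerebral artery for 60 min with reperfusion. Wild type (WT) mice on day 3 after the same occlusion gave 3 arrays, and a WT sham sample gave 1. The sources used here do not give the deleted exons, the ages or the part of the brain sampled. Nor do they tie replicates to separate animals, so a p-value reflects the spread between samples, which may be technical.

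Heat shock proteins are chaperones that bind unfolded proteins. Stress such as heat, ischemia or proteotoxic damage releases the transcription factor HSF1, which binds heat shock elements and drives the inducible genes. These elements are repeats of the unit GAA and its reverse complement TTC, placed head to head or tail to tail. In the ATP-driven cycle, a J-domain protein such as DNAJB1 delivers a client to HSP70 (HSPA1A, HSPA1B and the constitutive HSPA8) and HSP110 (HSPH1) exchanges the nucleotide. HSP90 (HSP90AA1) matures signalling proteins, HSPE1 is the lid of the mitochondrial chaperonin, and the small heat shock proteins HSPB8 and CRYAB hold clients without ATP. BAG3 links HSPB8 to HSP70 and steers clients to autophagy. In brain, CRYAB is made mainly by oligodendrocytes and astrocytes, and the inducible HSP70 genes are classic markers of ischemic stress.

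The probe of Hspa1a was a 60-base sequence on mm9 chr17:35094199-35094258, minus strand, and its annotation lists accessions of both Hspa1a and Hspa1b. Its value is therefore given as Hspa1a but cannot separate the pair. It is shown because every value of the inducible HSP70 genes rests on it.
Hspa1a probe: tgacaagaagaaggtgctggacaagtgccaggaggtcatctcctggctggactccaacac

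Promoter windows, from 250 bases before to 50 bases after the transcript start, were found in RefSeq (GRCm38.p6) for 7 of the 10 genes, in 9 windows. They were searched for GAANNTTC and TTCNNGAA, the head-to-head and tail-to-tail pairs of heat shock units. Each motif is its own reverse complement, so both strands give the same hits, and hits may overlap. Of 32851 windows in the table, 7.86% hold GAANNTTC, 8.52% hold TTCNNGAA and 15.1% hold either. At least 1 motif lies in windows of 6 of the 7 genes. In 2 genes, Hsph1 and Hspe1, there are at least 3 alternating units in a row, which 0.6% of all windows have. No motif lies in the windows of Dnajb1. A match describes letters only.
The pair Hspa1a and Hspa1b is shown because the probe reads both. Hsph1 and Hspe1 have the longest runs of units. Bag3 and Hspb8 are shown because their levels ran together across the arrays. The only motif of Bag3 (position 293 of the window) and of Hspb8 (position 253) lies after the transcript start, as does the run of units in Hsph1. Capitals mark the motifs.
Hspa1a, chr17:34972107-34972406, minus strand: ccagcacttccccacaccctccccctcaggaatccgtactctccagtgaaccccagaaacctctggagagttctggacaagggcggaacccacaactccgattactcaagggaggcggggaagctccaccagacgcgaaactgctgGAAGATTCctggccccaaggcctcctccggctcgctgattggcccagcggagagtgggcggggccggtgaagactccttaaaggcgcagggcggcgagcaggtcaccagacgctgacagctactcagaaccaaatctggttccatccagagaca
Hspa1b, chr17:34959189-34959488, minus strand: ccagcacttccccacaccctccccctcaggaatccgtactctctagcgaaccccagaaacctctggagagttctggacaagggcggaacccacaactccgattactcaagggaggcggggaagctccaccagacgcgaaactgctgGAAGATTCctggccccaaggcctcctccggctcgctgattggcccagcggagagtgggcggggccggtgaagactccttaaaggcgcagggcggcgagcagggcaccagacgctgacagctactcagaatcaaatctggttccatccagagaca
Hsph1, chr5:149636266-149636565, minus strand: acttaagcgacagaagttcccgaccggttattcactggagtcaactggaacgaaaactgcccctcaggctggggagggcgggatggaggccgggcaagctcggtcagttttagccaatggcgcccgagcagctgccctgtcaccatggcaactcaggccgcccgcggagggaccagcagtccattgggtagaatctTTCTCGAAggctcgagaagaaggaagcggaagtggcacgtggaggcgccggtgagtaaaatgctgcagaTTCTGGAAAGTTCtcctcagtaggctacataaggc
Hspe1, chr1:55087898-55088197, plus strand: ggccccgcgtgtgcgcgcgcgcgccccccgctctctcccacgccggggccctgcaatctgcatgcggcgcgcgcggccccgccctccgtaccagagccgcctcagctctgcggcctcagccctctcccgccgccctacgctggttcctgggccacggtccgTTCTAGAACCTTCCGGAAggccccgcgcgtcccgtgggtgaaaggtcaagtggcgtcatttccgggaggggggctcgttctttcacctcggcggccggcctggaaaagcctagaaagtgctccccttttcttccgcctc
Bag3, chr7:128523333-128523632, plus strand: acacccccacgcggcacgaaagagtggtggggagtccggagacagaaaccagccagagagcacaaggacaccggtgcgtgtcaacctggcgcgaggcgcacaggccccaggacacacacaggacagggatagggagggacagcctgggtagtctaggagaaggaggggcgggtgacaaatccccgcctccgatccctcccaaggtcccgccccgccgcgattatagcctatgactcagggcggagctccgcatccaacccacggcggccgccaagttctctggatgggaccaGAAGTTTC
Hspb8, chr5:116422815-116423114, minus strand: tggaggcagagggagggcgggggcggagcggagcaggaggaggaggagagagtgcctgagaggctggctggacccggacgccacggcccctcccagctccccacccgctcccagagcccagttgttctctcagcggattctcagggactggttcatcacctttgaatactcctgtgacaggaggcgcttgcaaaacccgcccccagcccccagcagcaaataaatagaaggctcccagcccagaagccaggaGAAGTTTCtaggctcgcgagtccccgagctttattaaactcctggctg
The windows of Hspa1a and Hspa1b differ at 4 of 300 bases (98.7% identity): C44T, T47C, T249G and C276T, counted from 1 at the 5′ end of the window with the base of Hspa1a first. None of the 4 lies in the motif, which starts 104 bases before the transcript start in both.

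Markers on some arrays did not all follow the labels, and this touches every comparison below. The array labelled WT day 3 replicate 1 correlated with the other 6 at 0.858 to 0.916 over all features, against 0.968 to 0.991 among those 6. On it 8 of 8 neuron markers lay above the other 6 arrays (their summed linear signal, in multiples of the array's 75th percentile, was 166, against 16.0 to 50.9 on the other 6). On the same array, 8 of 8 reactive astrocyte markers lay below the other 6 (sum 2.76, against 67.3 to 107). Of the microglia and phagocyte markers, 8 of 9 lay below them and 1 above (sum 30.5, against 200 to 240). Of all features, 34.3% lay below and 43.9% above the other 6 on that array. The sham array had a sum of 220 for microglia and phagocyte markers, inside the KO range of 200 to 240. For reactive astrocyte markers its sum, 67.3, lay below the KO arrays (77.0 to 107) and the other WT day 3 arrays (88.8, 89.6). Among the 6 arrays other than WT day 3 replicate 1, sham had the highest neuron sum (50.9). It had the lowest endothelial (29.3), red blood cell (0.325) and neutrophil (4.37) sums. Its astrocyte (95.8) and mature oligodendrocyte (178) sums lay within the range of the others. Mature oligodendrocyte markers on the WT day 3 replicate 1 array were within the range of the others for 9 of 9 genes (sum 139, against 97.8 to 186). Their part, and that of the other cell types, in the values below was not tested, and in bulk tissue fewer cells of a type and less RNA per cell cannot be told apart. The WT day 3 and sham arrays shared 1 slide and the KO arrays lay on another, so the slide cannot be told apart from the genotype.

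None of the 9 genes passed the test between KO and WT day 3 (limma, Benjamini-Hochberg over all features), and none had an unadjusted p under 0.05. The background was 0% of features called, and 0.853% (199 features) at an unadjusted p under 0.05 (limma). KO and WT day 3 arrays overlapped for all 9 genes, whereas 4.54% of all features had no overlap between these groups. The median log2 difference of the genes was 0.06, with 5 higher and 4 lower in KO, beside −0.03 for all features. The spread among arrays of a group differed widely between the genes, as the plot of values on each array shows. With 3 arrays against 3, an exact permutation test of a single gene could not go below p = 0.10, and none was run.

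**Figure D1:**
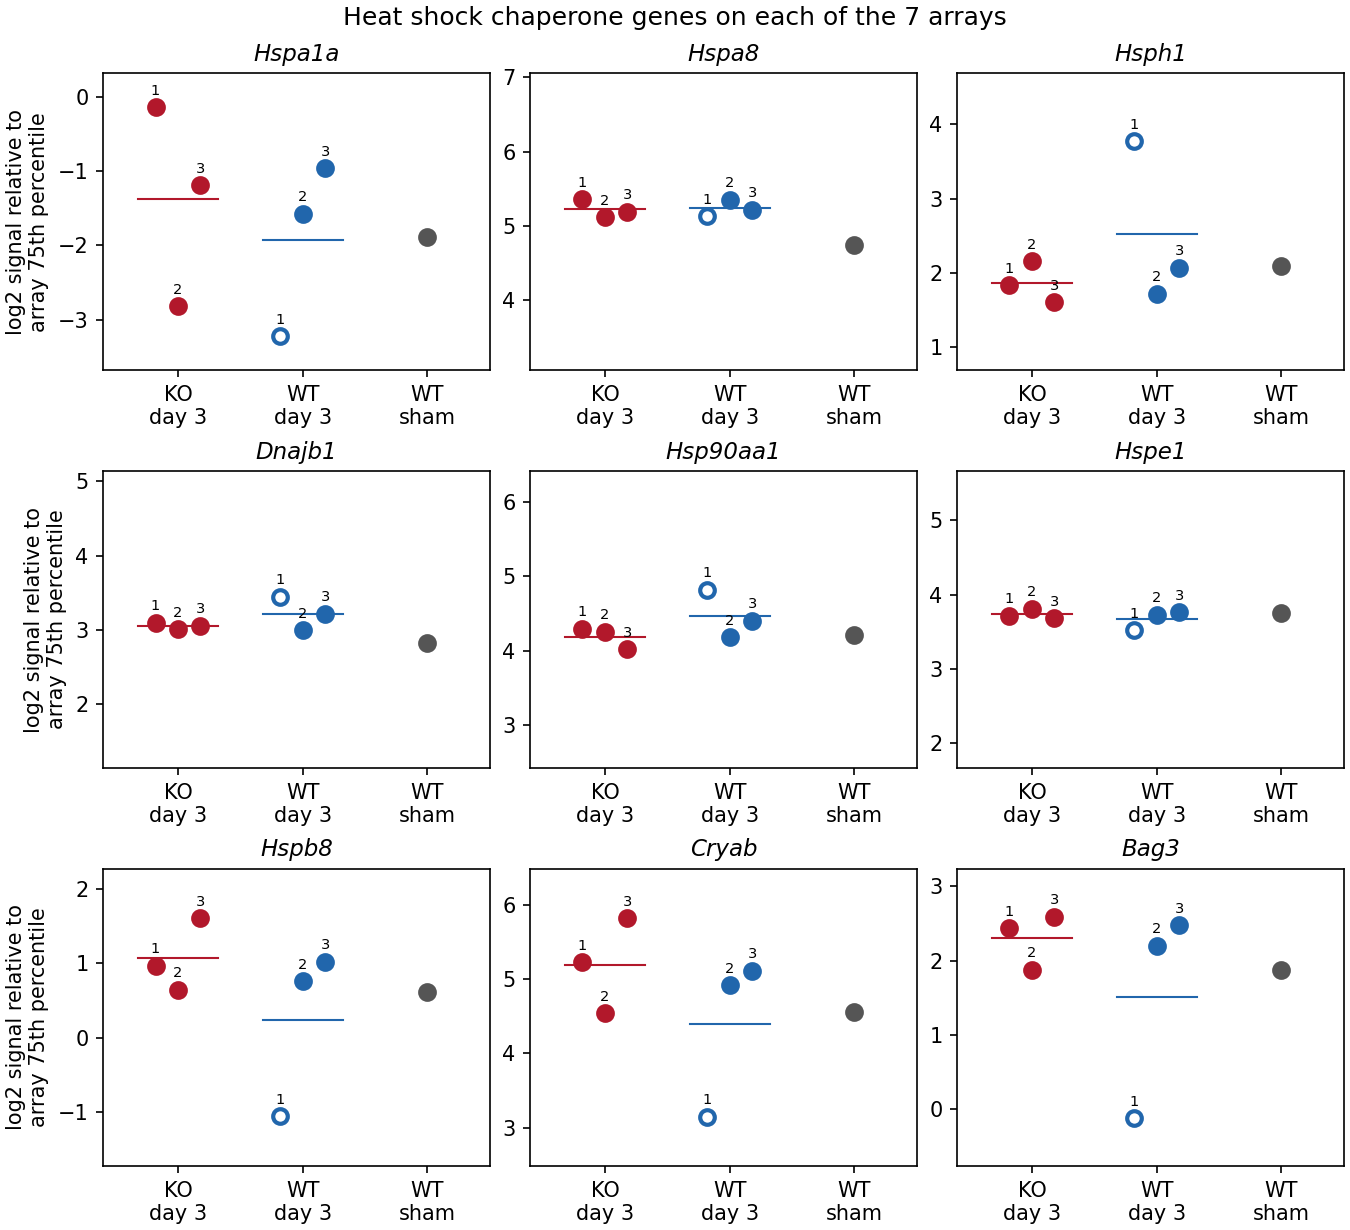
Log2 signal relative to the array's 75th percentile (vertical axis, of the same height in log2 units in every panel) of the 9 measured genes on the KO day 3, WT day 3 and WT sham arrays. Points are arrays with replicate numbers, horizontal lines are group means, and the open circle is WT day 3 replicate 1, which is the lowest array for Hspa1a, Hspb8, Cryab, Bag3 and Hspe1 and the highest for Hsph1, Hsp90aa1 and Dnajb1.

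Hspa1a, the stress-inducible HSP70, had levels of −0.14, −2.82 and −1.19 on the KO arrays, −3.23, −1.57 and −0.97 on the WT day 3 arrays, and −1.89 on the sham array. KO replicate 1 was the highest array and WT day 3 replicate 1 the lowest, and KO replicate 2 lay below sham. The KO and WT ranges overlapped in part. KO minus WT was 0.54 ± 0.88 (SE; 95% interval −1.64 to 2.72; adjusted p = 0.86, limma, 3 arrays each), and −0.08 without KO replicate 1. The 3 KO arrays alone spanned 6.40-fold. Among the 5 day 3 arrays other than WT replicate 1 the span was 2.68 log2 units, against a median of 0.56 for all features, and 3.26% of features spanned as much or more. Hspa1a thus varied more than most features among those 5 arrays, 3 KO and 2 WT.

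Hspa8 encodes the constitutive HSP70, and its levels were 5.36, 5.12 and 5.19 on KO arrays, 5.13, 5.36 and 5.22 on WT day 3 arrays, and 4.75 on the sham array. The 6 day 3 arrays, WT day 3 replicate 1 included, lay close together and sham lay below all of them. The difference between KO and WT was −0.01 ± 0.18 (SE; 95% interval −0.46 to 0.43), which bounds a genotype difference in either direction more narrowly than for Hspa1a. The array design places its 3 probes on chromosome 5, while RefSeq has the gene on chromosome 9, so near-identical copies may share the signal and the value is uncertain.

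Hsph1, the HSP110 nucleotide exchange factor, had levels of 1.83, 2.16 and 1.60 on KO arrays, 3.77, 1.72 and 2.07 on WT day 3 arrays, and 2.10 on the sham array. WT day 3 replicate 1 stood above all others, by 1.82 from their median, and the other 6 stayed within 0.55 of each other. The second probe of Hsph1 showed the same offset of that array, 1.77. Between KO and WT, Hsph1 differed by −0.65 ± 0.57 (SE; 95% interval −2.07 to 0.76; adjusted p = 0.86, limma).

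Dnajb1, the stress-inducible J-domain partner of HSP70, had levels of 3.10, 3.01 and 3.06 on KO arrays, 3.45, 3.00 and 3.22 on WT day 3 arrays, and 2.83 on the sham array. The KO arrays were the tightest group (SD 0.046) and lay inside the WT range, with sham lowest. KO minus WT came to −0.17 ± 0.19 (SE; 95% interval −0.65 to 0.32).

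Hsp90aa1, the inducible cytosolic HSP90, had levels of 4.30, 4.26 and 4.02 on KO arrays, 4.82, 4.18 and 4.40 on WT day 3 arrays, and 4.21 on the sham array. WT day 3 replicate 1 was again highest, and sham lay among the rest. Hsp90aa1 differed between KO and WT by −0.28 ± 0.23 (SE; 95% interval −0.86 to 0.30). A second probe under this name was well above background on 1 of 7 arrays and was not tested.

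Hspe1, the HSP10 lid of the mitochondrial chaperonin, had levels of 3.71, 3.81 and 3.68 on KO arrays, 3.52, 3.73 and 3.76 on WT day 3 arrays, and 3.75 on the sham array. On the probe used it was the flattest of the genes: leaving WT day 3 replicate 1 aside, the other 6 arrays spanned 0.12. For KO minus WT, Hspe1 gave 0.06 ± 0.17 (SE; 95% interval −0.36 to 0.49). The array design places the probe used on chromosome 5, while RefSeq has the gene on chromosome 1, so copies of the gene elsewhere may share its signal. On another Hspe1 probe WT day 3 replicate 1 (3.17) was also lowest, against 3.35 to 3.53 on the other 6. On the dimmest Hspe1 probe it read −0.30, within the −0.45 to −0.03 of the other 6. Without that array and sham, KO minus WT on these probes was −0.05 ± 0.13 and 0.16 ± 0.16 (SE).

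Hspb8, the small heat shock protein that partners BAG3, had levels of 0.96, 0.65 and 1.61 on KO arrays, −1.06, 0.76 and 1.02 on WT day 3 arrays, and 0.61 on the sham array. WT day 3 replicate 1 lay below the others, 3.80-fold under their median, while the remaining WT arrays fell inside the KO range. The KO minus WT value of Hspb8 was 0.83 ± 0.62 (SE; 95% interval −0.70 to 2.37; adjusted p = 0.86, limma).

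Cryab, alpha B-crystallin, had levels of 5.23, 4.54 and 5.82 on KO arrays, 3.15, 4.92 and 5.11 on WT day 3 arrays, and 4.55 on the sham array. The same WT array was lowest, 3.65-fold under the median of the others, and KO replicate 3 was highest. Cryab differed between KO and WT by 0.80 ± 0.63 (SE; 95% interval −0.76 to 2.36; adjusted p = 0.86, limma). The second probe of Cryab gave 0.70 ± 0.46 for the same difference, and WT day 3 replicate 1 was the lowest array on it too.

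Bag3, the co-chaperone that joins HSPB8 to HSP70, had levels of 2.44, 1.88 and 2.59 on KO arrays, −0.12, 2.20 and 2.47 on WT day 3 arrays, and 1.87 on the sham array. It had the widest gap of any of these genes between WT day 3 replicate 1 and the rest, 5.43-fold under their median, and the other WT arrays lay within the KO range. The KO minus WT value of Bag3 was 0.79 ± 0.73 (SE; 95% interval −1.03 to 2.60; adjusted p = 0.86, limma).

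Without the arrays labelled WT day 3 replicate 1 and sham, the KO minus WT differences of these genes drew in towards 0 except for Hspa8, leaving 3 KO and 2 WT arrays. The differences and their errors were the same without WT day 3 replicate 1 alone, because the lone sham array does not enter them. They became −0.11 ± 0.83 for Hspa1a, −0.03 ± 0.26 for Bag3 and −0.01 ± 0.12 for Hspe1 (SE), each now of the opposite sign on the probe used. They became 0.18 ± 0.32 for Hspb8, 0.18 ± 0.40 for Cryab and −0.03 ± 0.23 for Hsph1. The median was −0.03 with 2 genes higher and 7 lower in KO, beside 0.00 over all features. None passed and 0% of features were called (1.63% had an unadjusted p under 0.05, limma), and none of the 9 had groups that did not overlap, against 11.7% of features. The 95% interval still ran from −0.72 to 0.65 for Bag3, −0.65 to 1.02 for Hspb8, −0.86 to 1.22 for Cryab and −2.27 to 2.04 for Hspa1a, so changes of those sizes could not be told from 0. It was narrowest for Hspe1, from −0.33 to 0.31.

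**Figure D2:**
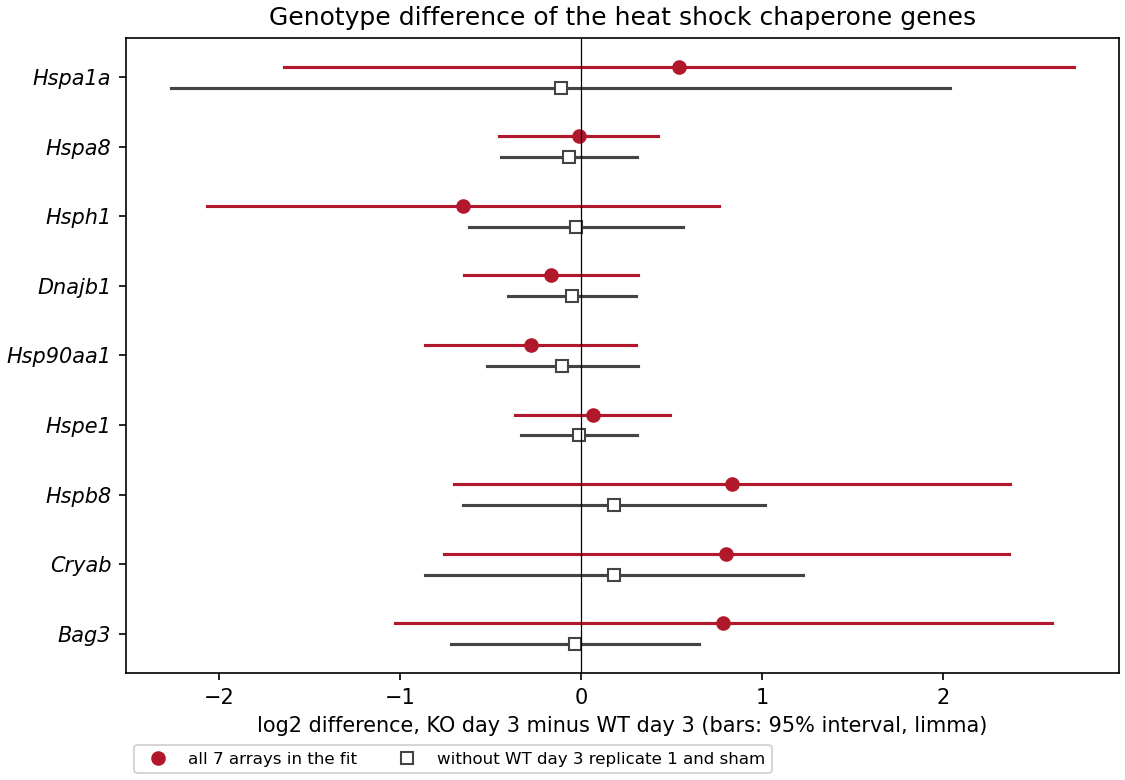
Log2 difference between KO day 3 and WT day 3 (horizontal axis) for the 9 genes with its 95% interval (limma), from all 7 arrays (red circles) and without WT day 3 replicate 1 and sham (open squares). Every interval includes 0, and those of Bag3, Hspb8 and Hsph1 are narrower in the second set.

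The array labelled WT day 3 replicate 1 split the genes into 2 sets. Hspa1a, Hspb8, Cryab, Bag3 and Hspe1 lay below each of the other 6 arrays (5 of 9 genes, against 34.3% of all features) and Hsph1, Hsp90aa1 and Dnajb1 above each of them (3 of 9, against 43.9%). More than 2-fold from the median of the others were Hspa1a, Hspb8, Cryab and Bag3 on the low side (18.9% of features did as much) and Hsph1 on the high side (20.7%). Most features lay outside the other 6 on that array, so with 9 genes these counts are not read as particular to the chaperones. The genes on the low side of over 2-fold lay there with the reactive astrocyte, phagocyte and endothelial markers. Of these markers 8 of 8, 8 of 9 and 6 of 6 lay below, and 1 phagocyte marker lay above. Hsph1 lay on the high side with the neuron markers. General astrocyte markers had 1 of 7 below, 3 above and 3 within (sum 134, against 64.2 to 102). Neutrophil markers had 3 of 5 below, 1 above and 1 within, and red blood cell markers 2 of 4 below and 2 within. What part those cell types have in the split was not tested.

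Among the 6 other arrays, Hspb8, Cryab and Bag3 ran together across samples of all 3 labels. Pearson's r was 0.97 between Hspb8 and Cryab, 0.93 between Bag3 and Cryab and 0.86 between Hspb8 and Bag3 (0.99, 0.96 and 0.98 with WT day 3 replicate 1 included). All 3 were highest on KO replicate 3 and had their 2 lowest values on KO replicate 2 and sham. Hsph1 ran the other way, with r = −0.79 against Cryab (−0.93 with that array). Hspa1a followed Bag3 with r = 0.80 (0.79) and Cryab with r = 0.64 (0.80), but was highest on KO replicate 1. These are descriptions over 6 or 7 arrays that share slides and, within an array, the scaling.

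**Figure D3:**
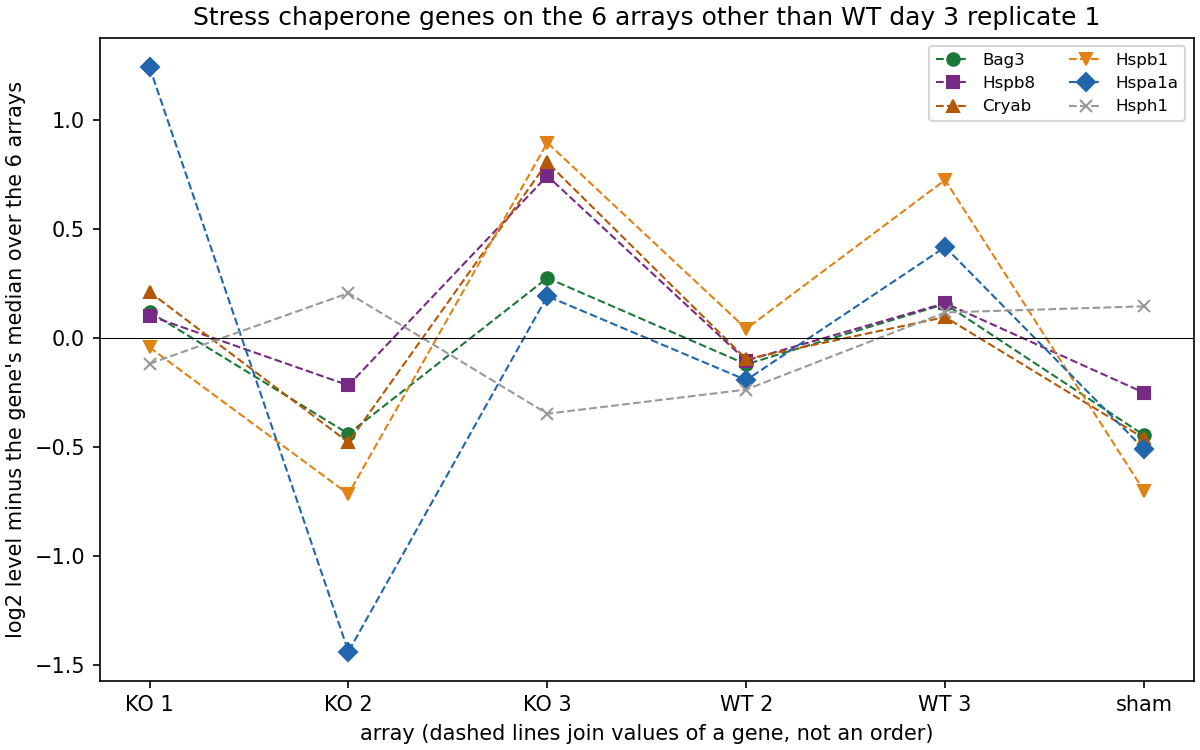
Log2 level of Hspa1a, Hspb8, Cryab, Bag3, Hsph1 and Hspb1 minus each gene's median (vertical axis) on the KO, WT and sham arrays other than WT day 3 replicate 1. Hspb8, Cryab and Bag3 peak on KO replicate 3, and Hspa1a spans the widest range, from KO replicate 1 down to KO replicate 2.

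By likeness over the 7 arrays, among 16015 features with an ordinary gene symbol, the profile closest to Hspa1a was that of D10Wsu102e (r = 0.993, and 0.988 over the 6 arrays without WT day 3 replicate 1), followed by Spty2d1 (0.989), Zmiz1 (0.987), Slc7a6os (0.983) and Pde12 (0.982). Closest to Cryab were G6pd2 (0.999, and 0.997 over the 6), Inmt (0.998), Usp53 (0.997), Iah1 (0.996) and G6pdx (0.995). G6pdx encodes the first enzyme of the pentose phosphate pathway, and G6pd2 is a near-identical copy, so their probes may share signal. High correlations were common: 392 features (2.45%) reached r of 0.9 with Hspa1a and 2723 (17.0%) did so with Cryab.

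Set against the sham array, the day 3 arrays showed no change that passed the test for any of the 9 genes (limma), and none had an unadjusted p under 0.05. The background was 0.0129% of features (3) called for KO minus sham and the same for WT minus sham, with 1.31% and 1.12% at an unadjusted p under 0.05. The comparisons share the sham array, which has no replicate, and KO and sham lay on different slides. The median difference was 0.43 for KO minus sham (0.00 over all features) and −0.03 for WT minus sham (0.03 over all features). Hspa8 differed by 0.47 ± 0.25 for KO minus sham and by 0.49 ± 0.25 for WT minus sham (SE), and both 95% intervals included 0. Quantile normalization gave 0.12 and 0.27, median scaling 0.58 and 0.59, and normexp background correction 0.43 and 0.47. The median of the 9 genes for KO minus sham was 0.12 with quantile normalization, 0.54 with median scaling and 0.42 with normexp. Without WT day 3 replicate 1 the Hspa8 differences became 0.47 ± 0.18 for KO minus sham and 0.54 ± 0.19 for WT minus sham (SE), and neither passed the test.

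Of the 9 genes, 4 (Hspa8, Dnajb1, Hspb8 and Bag3) were lower on the sham array than on each of the 5 day 3 arrays other than WT replicate 1, against 24.9% of features. On sham, 0 were higher than on each of those 5 arrays, against 21.8% of features. Endothelial markers lay lower in the same way in 6 of 6, red blood cell markers in 4 of 4 and neutrophil markers in 4 of 5 measured (of 6 listed). Reactive astrocyte markers were lower in 4 of 8 and higher in 0. Higher than on each of those 5 arrays were 5 of 8 neuron, 4 of 9 microglia and phagocyte, 3 of 7 astrocyte and 2 of 9 mature oligodendrocyte markers. In those lists 0 were lower. The summed signal was 35.9 to 69.3 on KO arrays, 12.1 to 58.2 on WT day 3 arrays and 29.3 on sham for endothelial markers. It was 1.80 to 7.31, 0.377 to 2.16 and 0.325 on the same groups for red blood cell markers, and 13.1 to 29.2, 0.461 to 30.6 and 4.37 for neutrophil markers. The part of these cells in the result was not tested. For Hspa1a, KO minus sham was 0.51 ± 1.24 and WT minus sham −0.03 ± 1.24 (SE), the widest errors of the 9. They became −0.11 for KO minus sham without KO replicate 1 and 0.62 for WT minus sham without WT replicate 1. Cryab gave 0.64 ± 0.89 for KO minus sham and −0.16 ± 0.89 for WT minus sham, and WT minus sham became 0.46 without WT replicate 1.

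The wider chaperone network, in 8 lists of 76 genes that were all measured, held no gene that passed in any of the 3 comparisons, and none had an unadjusted p under 0.05 (limma). Its median KO minus WT difference was 0.02, with 39 higher and 37 lower in KO. On the array labelled WT day 3 replicate 1, 31 of the 76 lay below each of the other 6 arrays (34.3% of all features did), 32 above (43.9% of all features) and 13 within their range. The plot of that array by list gives each gene's offset, and several lists, such as the other HSP70 and HSP110 genes with 3 below, 3 above and 3 within, held both directions.

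**Figure D4:**
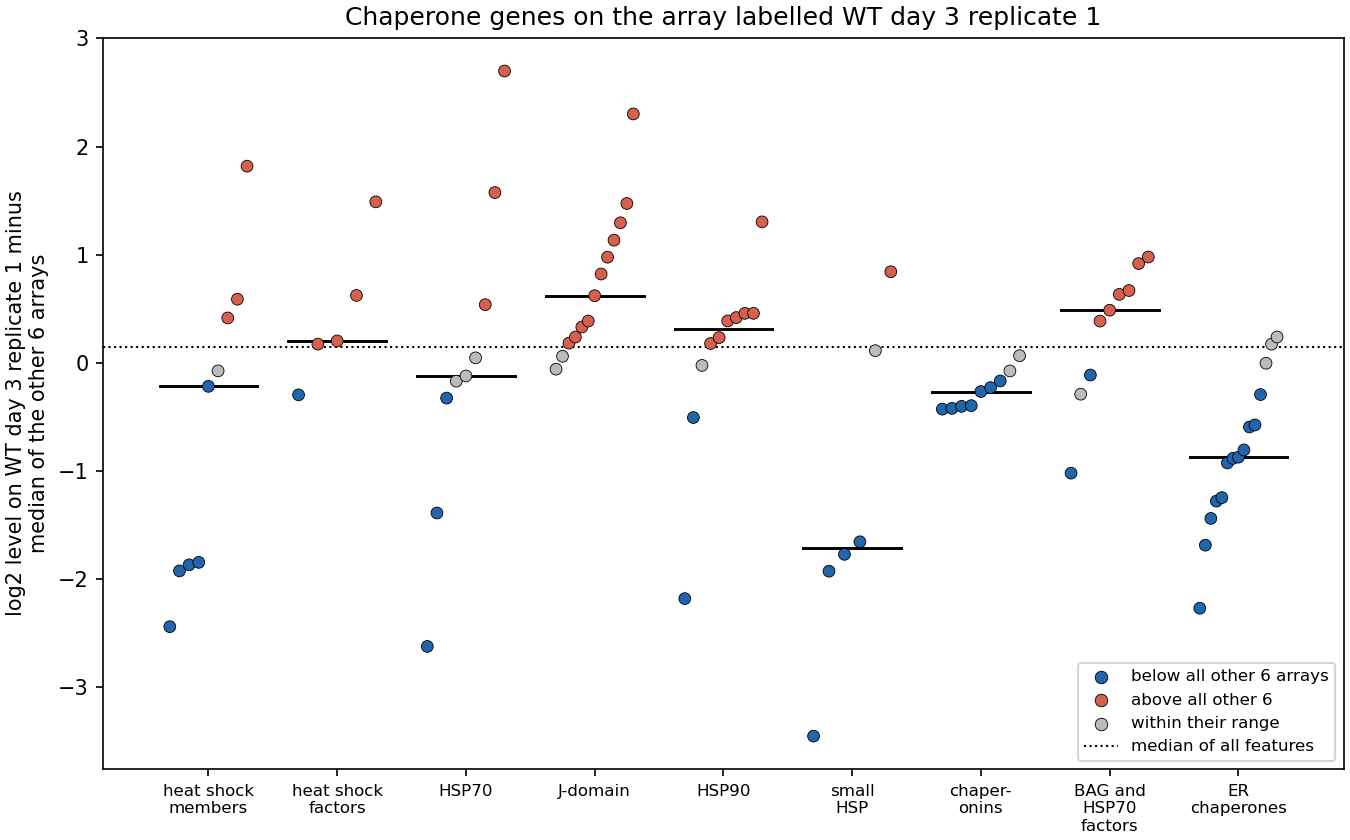
Log2 level on the array labelled WT day 3 replicate 1 minus the median of the other 6 arrays (vertical axis) for the 9 genes and the 8 lists of related chaperones. Each point is a gene, thick lines are list medians, colour marks whether the array lies below, above or within the other 6, and the dotted line is the median of all features, 0.15. The medians of small heat shock proteins (−1.71) and endoplasmic reticulum chaperones (−0.87) lie low, and that of J-domain genes (0.62) lies high.

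Among the heat shock factors and their regulators, Hsf1, which encodes the master factor of the response, had levels of 0.16, 0.00 and 0.08 on KO arrays, 0.73, 0.12 and 0.12 on WT day 3 arrays, and 0.03 on sham. Apart from WT day 3 replicate 1, its arrays lay within a narrow band. The difference between KO and WT was −0.24 ± 0.23 (SE), and −0.04 ± 0.13 without that array and sham. Hsf2 gave −0.25 ± 0.18 with all arrays and −0.20 ± 0.14 without those 2, Hsf4 −0.58 ± 0.50 and −0.05 ± 0.26, and Sirt1, a deacetylase of HSF1, −0.08 ± 0.23 and −0.23 ± 0.17. In all, 1 of 5 was higher and 4 lower in KO (median −0.24). On WT day 3 replicate 1, 4 of 5 lay above the other arrays (43.9% of all features did).

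Of the other J-domain genes, 13 of 13 were lower in KO than in WT (median −0.17). Above the other 6 on WT day 3 replicate 1 lay 11 of 13 (43.9% of all features did). Without that array and sham, 6 were higher and 7 lower. Dnajb5 gave −0.59 ± 0.44 with all arrays and −0.12 ± 0.19 without the pair, and Dnajc12 gave −0.39 ± 0.35 and −0.07 ± 0.21. Dnajb2, a neuronal J-domain chaperone, gave −0.23 ± 0.44 with all arrays and 0.22 ± 0.21 without the pair, and Dnajc7 −0.13 ± 0.16 and −0.08 ± 0.12. Of the 9 other HSP70 and HSP110 genes, 4 were higher and 5 lower in KO (median −0.00). Hspa12a had the highest offset of all 76 on WT day 3 replicate 1, with −1.73 there against −4.58 to −4.06 on the other 6. Its KO minus WT difference was −0.74 ± 0.80 with all arrays and 0.19 ± 0.18 without the pair. Hspa4l had −0.74 ± 0.52 and −0.22 ± 0.30, and Hspa2 −0.51 ± 0.28 and −0.37 ± 0.28 (SE).

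Among 6 other small heat shock protein genes, Hspb1 (HSP27) had the largest offset on that array. Its levels were 5.30, 4.63 and 6.24 on KO arrays, 1.89, 5.39 and 6.07 on WT day 3 arrays, and 4.64 on the sham array. WT day 3 replicate 1 lay far below the rest, and KO replicate 2 and sham were the next lowest, the order seen for Cryab. The difference between KO and WT was 0.94 ± 1.16, and −0.34 ± 0.53 without that array and sham (SE). For KO minus WT, Hspb7 gave 0.41 ± 0.61 with all arrays and −0.24 ± 0.26 without the pair, Hspb2 0.34 ± 0.70 and −0.40 ± 0.37, and Hspb6 0.10 ± 0.68 and −0.53 ± 0.51. Hspb7 was dim, at −6.87 to −5.95 on the 6 arrays other than WT day 3 replicate 1. On that array it read −8.10, under the lowest spot well above background there (−7.86), so its differences lie near the floor. The list had 4 higher and 2 lower in KO (median 0.22), and 1 higher and 5 lower without the pair of arrays. On WT day 3 replicate 1, 4 of 6 lay below the other 6 arrays (34.3% of all features did), 1 above and 1 within.

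Of the 9 cytosolic and mitochondrial chaperonins, none passed the test between KO and WT. Their values were positive for 9 of 9 (median 0.19) with all arrays and for 8 of 9 (median 0.10) without WT day 3 replicate 1 and sham. On WT day 3 replicate 1, 7 of 9 lay below the other 6 arrays (34.3% of all features did). On sham, 8 of 9 were lower than on each of the 5 other day 3 arrays (24.9% of all features were). Cct8 differed by 0.25 ± 0.21 with all arrays and 0.11 ± 0.15 without the pair, Cct3 by 0.22 ± 0.20 and 0.14 ± 0.16, and Tcp1 by 0.08 ± 0.17 and 0.11 ± 0.13 (SE), so none exceeded its error by much. Of 10 other HSP90 genes and co-chaperones, 4 were higher and 6 lower in KO, and 7 higher and 3 lower without the pair. Chordc1 gave −0.28 ± 0.18 with all arrays and −0.19 ± 0.12 without the pair, Fkbp4 −0.30 ± 0.22 and −0.15 ± 0.16, and Trap1, the mitochondrial HSP90, 0.06 ± 0.18 and 0.15 ± 0.14. Of 9 BAG and HSP70 exchange or ubiquitin factors, 4 were higher and 5 lower in KO, and 8 higher and 1 lower without the pair. Sil1 gave 0.17 ± 0.17 with all arrays and 0.14 ± 0.13 without the pair, and Bag1 0.17 ± 0.19 and 0.07 ± 0.14. Hspbp1 turned from −0.08 ± 0.26 with all arrays to 0.17 ± 0.13 without the pair, and Bag2 gave 0.06 ± 0.23 and 0.20 ± 0.18.

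Endoplasmic reticulum chaperones belong to a different stress pathway, the unfolded protein response. Of 15, 13 were higher in KO than in WT (median 0.22). However, 12 of 15 lay below the other 6 on WT day 3 replicate 1 (34.3% of all features did). Without that array and sham, 2 were higher and 13 lower (median −0.05). Canx, the lectin chaperone calnexin, gave 0.21 ± 0.17 with all arrays and 0.24 ± 0.14 without the pair, and Herpud1, a factor of protein degradation at the endoplasmic reticulum, gave −0.25 ± 0.19 and −0.25 ± 0.17 (SE). Both kept their direction without the pair, and neither passed the test.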

How the data were processed

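Agilent 1-colour oligonucleotide arrays of 7 brain RNA samples were analysed, placed by their titles. The deposited spot intensities come from Agilent Feature Extraction (version 11.5.1.1, per the submitters' processing notes). Per the file headers, the processed intensity was background-subtracted and detrended within each array. The deposited value table is a linear ratio, which matched the processed signal over the array's 75th percentile to within 0.0428% (column medians 0.0863 to 0.0976), and it was an alternative only. Arrays had 44397 spots (43020 other than controls, 31177 to 34029 of them well above background), 0 were saturated, and 91 to 147 with outlier flags were left out. The number of arrays limits the precision.

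Log2 processed signals were scaled by subtracting the 75th percentile of the array. Probes well above background on at least 3 arrays were kept, with the brightest per gene. Symbols were updated by accession (28315 of 39401 probes, RefSeq, GRCm38.p6), and probe positions are on mm9. The test was limma (version 3.58.1, R 4.3.3) in 1 model of the 3 groups (4 residual and 1.68 prior degrees of freedom), two-sided, with Benjamini-Hochberg adjustment over 23323 features and a threshold of 0.05. The lone sham array was given the spread of the others. The limma step alone was run on simulated data with independent normal noise. The spread of that noise was set without WT day 3 replicate 1, so the run does not show how the test behaves with that array. Plots used Python 3.11.15 and matplotlib 3.10.9.

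Members and lists were chosen with earlier results of these data known. Named besides the members and Hsf1 are, per list, up to 2 genes with the smallest p for KO minus WT with all arrays and up to 2 without WT day 3 replicate 1 and sham, and the 5 features most like Hspa1a and the 5 most like Cryab. Lists were described by counts and medians, with no set test. Alternatives covered background correction, scaling, filter, probe choice, array weights, leaving out arrays and the replicate number as a block. Deviations of same-numbered KO and WT arrays from their group means correlated at r = −0.38, −0.56 and 0.35. The WT mean includes WT day 3 replicate 1, and WT replicates 2 and 3 gave similar r with each KO array. The check therefore cannot tell whether the numbers pair the arrays.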

Additional observations from a re-analysis of the deposited data

How the results depend on the processing

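No member was called in any comparison under any alternative run. For KO minus WT, the replicate number as a block (replicate block, day 3 arrays only) called 0 features, with 150 at an unadjusted p under 0.05 (limma) and a members' median of 0.06, and changed no call. Array weights, which gave WT day 3 replicate 1 a weight of 0.0513, called 2 features for KO minus WT, 80 for KO minus sham and 147 for WT minus sham, none of them members. Members that turned sign under them, without being called, were Dnajb1 (0.0264) and Hspe1 (−0.0215) for KO minus WT, and for WT minus sham Hspa1a was 0.432, Hspb8 0.190, Hsph1 −0.294, Bag3 0.366 and Cryab 0.391. Without WT day 3 replicate 1 and sham together, KO minus WT was −0.113 for Hspa1a, −0.0110 for Hspe1 and −0.0325 for Bag3. Features called for KO minus sham were 0 with normexp, 1 with quantile normalization, 0 with median scaling and 0 with the stricter filter on dim probes, and for WT minus sham 0, 1, 1 and 0. KO minus sham of Hsp90aa1 was 0.00406 with normexp and 0.0915 with median scaling, and that of Hspe1 0.0994 with median scaling. WT minus sham of Hspa1a was 0.0645 with normexp, 0.00325 with quantile normalization and 0.0692 with median scaling, and that of Hspe1 0.0246 with median scaling. Median scaling moved the median of all features by over 0.1 in the sham comparisons (to 0.12 for KO and 0.13 for WT). Leaving out each day 3 array in turn, KO minus WT ran from −0.113 to 1.26 for Hspa1a, −0.0836 to 0.0463 for Hspa8, −0.0110 to 0.111 for Hspe1 and −0.0325 to 1.27 for Bag3. KO minus sham ran from −0.114 to 1.23 for Hspa1a, −0.0734 to 0.0667 for Hsp90aa1 and −0.0484 to 0.0137 for Hspe1, with 0 to 8 features called. WT minus sham ran from −0.510 to 0.621 for Hspa1a, −0.763 to 0.279 for Hspb8, −0.205 to 0.823 for Hsph1, −0.835 to 0.463 for Bag3 and −0.523 to 0.459 for Cryab, with 0 to 6 features called; the highest counts came without WT day 3 replicate 1. The cause of these moves was not tested.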
